A study of Mus musculus with 12 samples.

Results

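The genes described here encode the subunits, activators and assembly chaperones of the proteasome, taken as all protein-coding genes of GENCODE M21 whose symbol begins with Psma, Psmb, Psmc, Psmd, Psme, Psmf or Psmg. The rule gave 50 genes of the 51826 in the count tables, and 48 of them held enough reads to be tested. The 2 others were Psma8, the alpha subunit of the testis proteasome, with 2 reads in 1 S38A mitotic library, and Psmb11, the thymus catalytic subunit, with 4 reads in 4 libraries. One member, Psmc3ip, shares only the beginning of its symbol: it encodes a meiotic recombination factor and is kept apart from the classes below. The cells were 19DN, which lacks the GFP and hCD2 reporters of its parent, the lymphoma line 19PP. That line arose in Rag2-/-γC-/- mice from bone marrow carrying Cγ1-Cre and Myc/P110*flSTOP, so all groups share these alleles. RPL12 (uL11), a ribosomal protein of the large subunit, carried serine 38 changed to alanine (S38A) or to aspartate (S38D) or was wild type (WT). Mitotic cells of each line had 100 ng/mL nocodazole, a microtubule poison, for 8 h and 10 min of release, and are set against asynchronous cells of the same line. Cycloheximide at 100 µg/mL, which stops translation elongation, was present at harvest in all 6 groups, and all were grown with 52 µM β-mercaptoethanol. There were 2 libraries in each of the groups S38A mitotic, S38D mitotic, WT mitotic, S38A asynchronous, S38D asynchronous and WT asynchronous. The sources used here do not say whether replicates came from separate cultures or whether a mutant line is a single clone, so p-values measure only the spread between these libraries, and line and mutation cannot be told apart.

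The proteasome degrades proteins that carry ubiquitin chains. Its core particle stacks rings of alpha subunits (Psma) around rings of beta subunits (Psmb), and the beta subunits Psmb6, Psmb7 and Psmb5 carry the caspase-like, trypsin-like and chymotrypsin-like sites. In lymphoid cells and after interferon these can be replaced by the immunoproteasome subunits Psmb9, Psmb10 and Psmb8, which favour peptides for presentation on MHC class I. The cap is made of a base with ATPases (Psmc) that unfold substrates and a lid (most Psmd genes) that helps to bind and deubiquitinate them. Psme genes encode activators other than this cap, and Psmg1 to Psmg4 together with Psmd5, Psmd9 and Psmd10 act in assembly. Mitotic exit depends on the proteasome, which destroys cyclin B and securin marked by the APC/C ubiquitin ligase.

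RNA was counted at transcript 3′ ends, and levels are given as CPM, counts scaled to library size with TMM factors. The libraries held 3432875 to 6587997 gene reads, of which the members took 1.75% to 1.93%. Mean levels over the 12 libraries ran between 1.82 CPM for Psme2b and 2870.4 CPM for Psmb4, with a median member at 135 CPM against 22.4 CPM for all genes tested. Of 8 B cell markers 8 were detected, and their summed level was 1309.9 to 1987 CPM in mitotic and 2264 to 3129 CPM in asynchronous cells. None of 6 T and NK cell markers passed the filter, and 5 of them were at 0 in every library. Of 5 myeloid markers 2 passed, with a summed level of 1.13 to 5.07 CPM in mitotic and 2.24 to 5.99 CPM in asynchronous cells, and Itgam at 0. Of 4 erythroid and stromal markers 1 passed (12.1 to 74.1 CPM in mitotic and 23.7 to 106 CPM in asynchronous cells), with Hba-a1 at 0. The lower B cell marker sum of the mitotic libraries moved with every mitotic change reported here, and its part in them was not tested. Rpl12 itself, whose codon 38 is not seen in 3′ counts, had 51.3 and 43.3 CPM in S38A mitotic, 48.0 and 62.1 in S38D mitotic and 73.5 and 74.4 in WT mitotic libraries, against 41.3 and 44.7 in S38A asynchronous, 35.8 and 28.3 in S38D asynchronous and 39.9 and 39.1 in WT asynchronous libraries. Fewer cells of a type and less RNA per cell cannot be told apart in bulk RNA.

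S38D asynchronous replicate 1 and WT mitotic replicate 1 stood apart from their partner libraries. Of the 48 members tested, 4 differed by over 2-fold between the S38D asynchronous libraries, beside 9.20% of all genes tested. Between the WT mitotic libraries 2 members and 5.13% of all genes did, and between the S38A mitotic 1 member and 2.27%. In each of the other 3 groups 0 members did, beside 1.81% to 2.09% of all genes. The alpha subunit gene Psma5 had 26.8 and 52.2 CPM in the WT mitotic and 19.3 and 62.6 CPM in the S38D asynchronous libraries. Psmb7, the trypsin-like catalytic subunit, had 97.5 and 244 CPM in the WT mitotic and 98.4 and 269.6 CPM in the S38D asynchronous libraries. The assembly chaperone Psmg1 had 23.4 and 40.2 CPM in the WT mitotic and 22.4 and 54.3 CPM in the S38D asynchronous libraries. Replicate 1 was the lower library for these 3 genes in both groups. With 2 libraries a group, these values cannot show which library is off. Fits without both replicate 1 libraries drop the replicate spread of such genes, so calls gained there add no support. Their standard errors in the mitotic comparison averaged over lines were 0.323 for Psma5, 0.316 for Psmb7 and 0.233 for Psmg1 on the log2 scale.

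**Figure D1:**
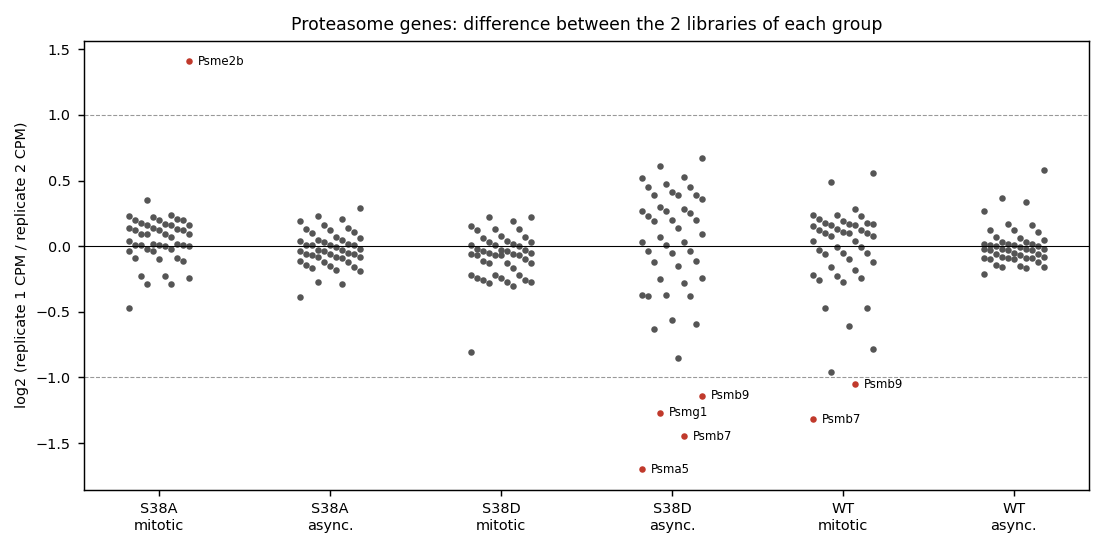
Difference between the 2 libraries of each group for the 48 members tested (y axis, log2 of replicate 1 CPM over replicate 2 CPM; each point is 1 gene; dashed lines mark 2-fold). The points beyond the dashed lines are 4 genes in S38D asynchronous, 2 in WT mitotic and, in S38A mitotic, Psme2b, a gene with 118 reads in all. Over all genes tested the shares beyond 2-fold were 9.20%, 5.13% and 2.27% in the same order.

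Promoters of the immunoproteasome subunits Psmb8, Psmb9 and Psmb10 are shown with that of Psmb5, the only constitutive catalytic subunit printed. RefSeq (GRCm38.p6) gave 45 promoter windows, from 250 bases before to 50 after a start, for 42 of the 50 members. The windows are chr17:34197945-34198244 on the plus strand for Psmb8, chr17:34187281-34187580 on the minus strand for Psmb9, chr8:105938343-105938642 on the minus strand for Psmb10 and chr14:54617946-54618245 on the minus strand for Psmb5. The Psmb8 and Psmb9 windows lie wholly inside the genes as annotated in GENCODE (chr17:34197721-34201454 and chr17:34181987-34187764), so they hold nothing upstream of those gene models. Capitals mark matches, on either strand, to the antioxidant response element core TGANNNNGC, the CCAAT box CCAAT, the gamma-interferon activation site core TTCNNNGAA or the interferon-stimulated response element core, which is GAAA, any 2 bases and GAAA again.
Psmb8: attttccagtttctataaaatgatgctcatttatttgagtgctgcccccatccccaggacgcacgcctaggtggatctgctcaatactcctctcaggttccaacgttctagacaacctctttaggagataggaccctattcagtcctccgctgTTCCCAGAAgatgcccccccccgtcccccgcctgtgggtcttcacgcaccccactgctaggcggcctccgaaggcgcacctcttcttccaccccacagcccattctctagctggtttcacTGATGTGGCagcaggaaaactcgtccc
Psmb9: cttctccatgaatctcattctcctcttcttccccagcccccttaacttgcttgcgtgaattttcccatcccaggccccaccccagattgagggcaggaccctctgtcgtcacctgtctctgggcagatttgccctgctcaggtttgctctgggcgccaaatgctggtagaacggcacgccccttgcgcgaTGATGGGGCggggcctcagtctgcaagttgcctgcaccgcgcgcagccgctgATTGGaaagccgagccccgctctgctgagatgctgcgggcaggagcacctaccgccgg
Psmb10: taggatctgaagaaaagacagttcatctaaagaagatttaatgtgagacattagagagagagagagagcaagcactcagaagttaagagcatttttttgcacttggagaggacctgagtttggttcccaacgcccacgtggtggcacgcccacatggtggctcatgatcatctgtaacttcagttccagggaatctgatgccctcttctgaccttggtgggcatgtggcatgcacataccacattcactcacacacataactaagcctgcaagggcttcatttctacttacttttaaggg
Psmb5: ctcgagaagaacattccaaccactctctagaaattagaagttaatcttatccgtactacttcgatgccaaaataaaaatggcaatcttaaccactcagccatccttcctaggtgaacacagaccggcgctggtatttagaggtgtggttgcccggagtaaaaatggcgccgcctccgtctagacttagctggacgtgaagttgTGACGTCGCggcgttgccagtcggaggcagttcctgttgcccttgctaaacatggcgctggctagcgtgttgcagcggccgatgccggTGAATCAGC
Psmb8 held 1 TTCNNNGAA and 1 TGANNNNGC, Psmb9 held 1 TGANNNNGC and 1 CCAAT on the reverse strand, Psmb10 held none of the 4 motifs, and Psmb5 held 2 TGANNNNGC. The window of Psmb6, not printed, held 1 TGANNNNGC, and Psmb7 had no window. Over all windows, TGANNNNGC was in 57.8% of the members' promoters and 41.3% of the 32851 promoters in the table. CCAAT was in 33.3% of the members' and 37.4% of all promoters, TTCNNNGAA in 6.67% and 8.30%, and the interferon-stimulated core in 11.1% and 3.44%. A match describes the letters only.

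In mitotic against asynchronous cells, averaged over the 3 lines, proteasome genes moved in both directions. Genes were called at an adjusted p under 0.05 from edgeR's quasi-likelihood test, adjusted by Benjamini-Hochberg over 10477 genes. Of the 48 members 6 were higher and 9 lower in mitotic cells, so 31.2% were called, against 42.1% of all genes tested (20.5% higher and 21.6% lower). The members' median log2 fold change was -0.06, against -0.02 over all genes. Psmg4, Psmb10, Psmg2, Psme3, Psmd7 and Psma7 were higher, and Psmc3ip, Psme1, Psme4, Psmd10, Psmd14, Psmd13, Psmb5, Psmb8 and Psmb1 were lower. In 4 members, Psmg2, Psmb10, Psme3 and Psma7, all 6 mitotic libraries were above all asynchronous ones, as in 5.79% of all genes, and in 1, Psmc3ip, they were below, as in 4.84%. When libraries were scaled on the ERCC spike-in RNA, the median of all genes moved by -0.18, and 4 members were higher and 21 lower, with 9.88% higher and 31.9% lower over all genes. The 4 were Psmg4, Psmb10, Psmg2 and Psme3, while Psma7 (log2 0.07, adjusted p = 0.511) and Psmd7 (0.09, adjusted p = 0.408) lost their call. Without S38D asynchronous replicate 2, 24 members and 46.4% of all genes were called, and without both libraries that stood apart 8 were higher and 12 lower, with 46.7% of all genes called.

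By class, of the 14 constitutive core subunits 1 was higher and 2 lower (median -0.05), and of the 17 cap subunits 1 was higher and 2 lower (median -0.07). The 6 ATPases of the base gave 0 calls in edgeR, with log2 fold changes between -0.15 and 0.08. The 3 immunoproteasome subunits had 1 higher and 1 lower (median -0.18), and the 6 activator and inhibitor genes 1 higher and 2 lower (median -0.15). The 7 assembly chaperones had 2 higher and 1 lower (median 0.15), and the 4 chaperones of the core particle among them 2 higher and 0 lower (median 0.45). These classes are small, and no class was tested against another.

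**Figure D2:**
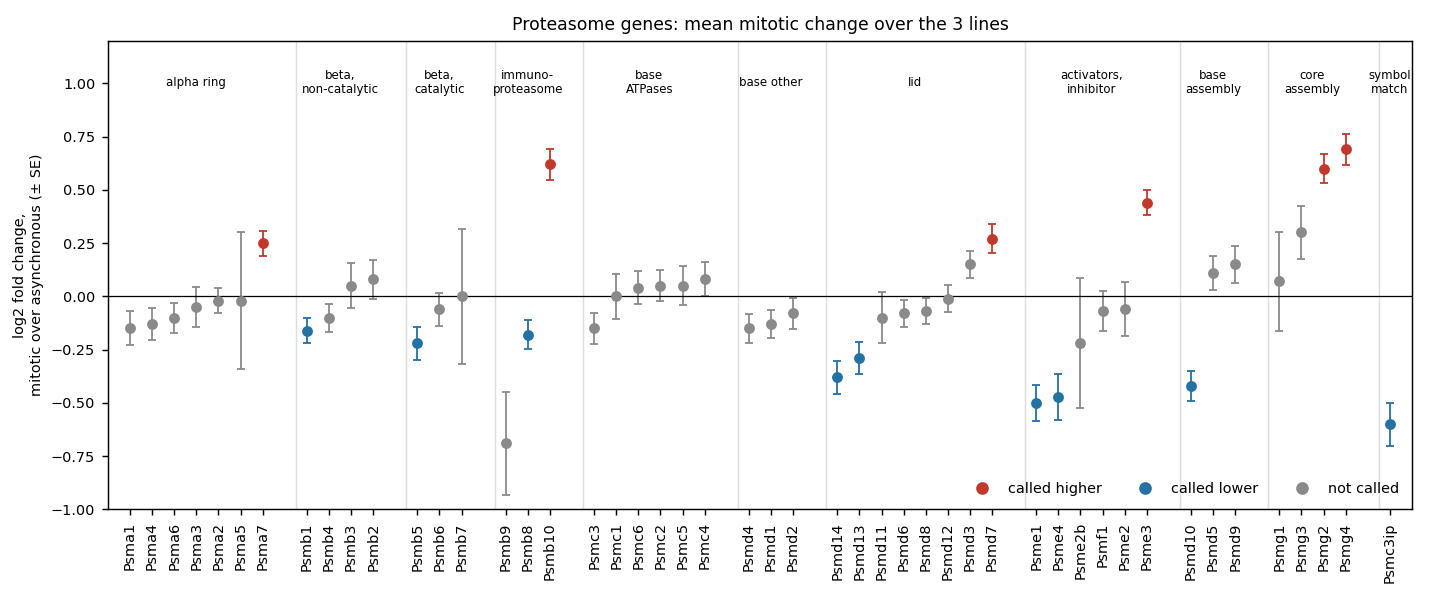
Log2 fold change of each of the 48 members tested, mitotic over asynchronous as a mean of the 3 lines (y axis; point, estimate; bar, ± SE; red, called higher; blue, called lower; grey, not called), grouped by class along the x axis. Base ATPases lie between -0.15 and 0.08, while Psmg4 reaches 0.69, Psmb10 0.62 and Psmg2 0.60, and Psme1 lies at -0.50.

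Among the chaperones of the core particle, Psmg4 and Psmg2 rose in mitotic cells of all 3 lines. Psmg4, which pairs with Psmg3 to build alpha rings (chr13:34162964-34178173), had 82.8 and 84.9 CPM in S38A mitotic, 129 and 118 in S38D mitotic and 146 and 126 in WT mitotic libraries, against 52.6 and 53.8 in S38A asynchronous, 84.8 and 72.1 in S38D asynchronous and 81.7 and 78.2 in WT asynchronous libraries. Each line's mitotic libraries lay above its own asynchronous ones, while across lines S38A mitotic overlapped S38D asynchronous. The mean log2 fold change was 0.69 (SE 0.0725, adjusted p = 1.59e-06). Within lines it was 0.66 (adjusted p = 0.00230) in S38A, 0.65 (adjusted p = 0.00115) in S38D and 0.76 (adjusted p = 0.000511) in WT.

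Psmg2, the partner of Psmg1 in a chaperone of alpha ring assembly, had 317 and 320.2 CPM in S38A mitotic, 412 and 409 in S38D mitotic and 327 and 355 in WT mitotic libraries, against 221 and 213 in S38A asynchronous, 200.1 and 258 in S38D asynchronous and 262 and 256 in WT asynchronous libraries. The lowest mitotic library was above the highest asynchronous one. The mean log2 fold change was 0.60 (SE 0.0677, adjusted p = 3.57e-06), with 0.55 (adjusted p = 0.00458) in S38A, 0.84 (adjusted p = 8.34e-05) in S38D and 0.39 (adjusted p = 0.0219) in WT. With spike-in scaling the WT values were -0.05 (adjusted p = 0.850) for Psmg2 and 0.32 (adjusted p = 0.110) for Psmg4, and the S38A value of Psmg2 was 0.57 (adjusted p = 0.0519). The WT call of Psmg2 was lost without mitotic replicate 2 (adjusted p = 0.111), asynchronous replicate 1 (0.109) or asynchronous replicate 2 (0.0942) of WT. The S38A call of Psmg2 was lost without mitotic replicate 2 (adjusted p = 0.0529), asynchronous replicate 1 (0.0534) or asynchronous replicate 2 (0.0660) of S38A. The 2 other members of the class were not called: Psmg3 had a mean of 0.30 (SE 0.124, adjusted p = 0.0838) and Psmg1 0.07 (SE 0.233, adjusted p = 0.846).

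The base chaperone Psmd10 (gankyrin), on the X chromosome, fell in mitotic cells. It had 197 and 167 CPM in S38A mitotic, 118 and 122 in S38D mitotic and 125 and 115 in WT mitotic libraries, against 232 and 230.4 in S38A asynchronous, 190.4 and 160.1 in S38D asynchronous and 151 and 162 in WT asynchronous libraries. The states were apart within each line, but both S38A mitotic libraries lay above both WT asynchronous ones. Averaged over lines the log2 fold change was -0.42 (SE 0.0695, adjusted p = 0.000141). The other base chaperones were not called, with 0.11 (adjusted p = 0.275) for Psmd5 and 0.15 (adjusted p = 0.180) for Psmd9.

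Activator genes went both ways. Psme3, which encodes the nuclear activator PA28γ (chr11:101316213-101323537), had 212 and 211 CPM in S38A mitotic, 285 and 269.8 in S38D mitotic and 272 and 255 in WT mitotic libraries, against 166 and 187 in S38A asynchronous, 204 and 203 in S38D asynchronous and 172 and 172 in WT asynchronous libraries. All mitotic libraries were above all asynchronous ones, and the mean log2 fold change was 0.44 (SE 0.0599, adjusted p = 2.24e-05). Psme1, a subunit of the interferon-inducible activator PA28αβ, had 77.4 and 67.0 CPM in S38A mitotic, 47.0 and 44.9 in S38D mitotic and 60.6 and 53.8 in WT mitotic libraries, against 84.3 and 87.9 in S38A asynchronous, 89.5 and 68.2 in S38D asynchronous and 75.5 and 82.2 in WT asynchronous libraries. The mitotic libraries of each line were the lower ones, and the mean log2 fold change was -0.50 (SE 0.0840, adjusted p = 0.000179). The last 500 bases of Psme1 overlap Emc9 on the opposite strand, which held 1473 reads against 4517 of Psme1, and no source used here says whether the counting used strand.

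Psme4, the activator PA200, had 66.3 and 66.3 CPM in S38A mitotic, 59.1 and 61.1 in S38D mitotic and 57.4 and 57.7 in WT mitotic libraries, against 73.9 and 77.6 in S38A asynchronous, 61.4 and 90.5 in S38D asynchronous and 128 and 85.6 in WT asynchronous libraries. Mitotic libraries were lower in each line, and WT asynchronous replicate 1 was the highest of all. Over the 3 lines the log2 fold change was -0.47 (SE 0.108, adjusted p = 0.00271). In WT it was -0.89 (adjusted p = 0.00356), and -0.57 (adjusted p = 0.0781) without WT asynchronous replicate 1. Psme2, the partner of Psme1 in PA28αβ, had a mean of -0.06 (SE 0.127, adjusted p = 0.712), and the inhibitor Psmf1 (PI31) -0.07 (SE 0.0935, adjusted p = 0.596). Psme2 and its copy Psme2b are 99.0% identical at the 3′ end, so the 118 reads counted for Psme2b are uncertain.

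**Figure D3:**
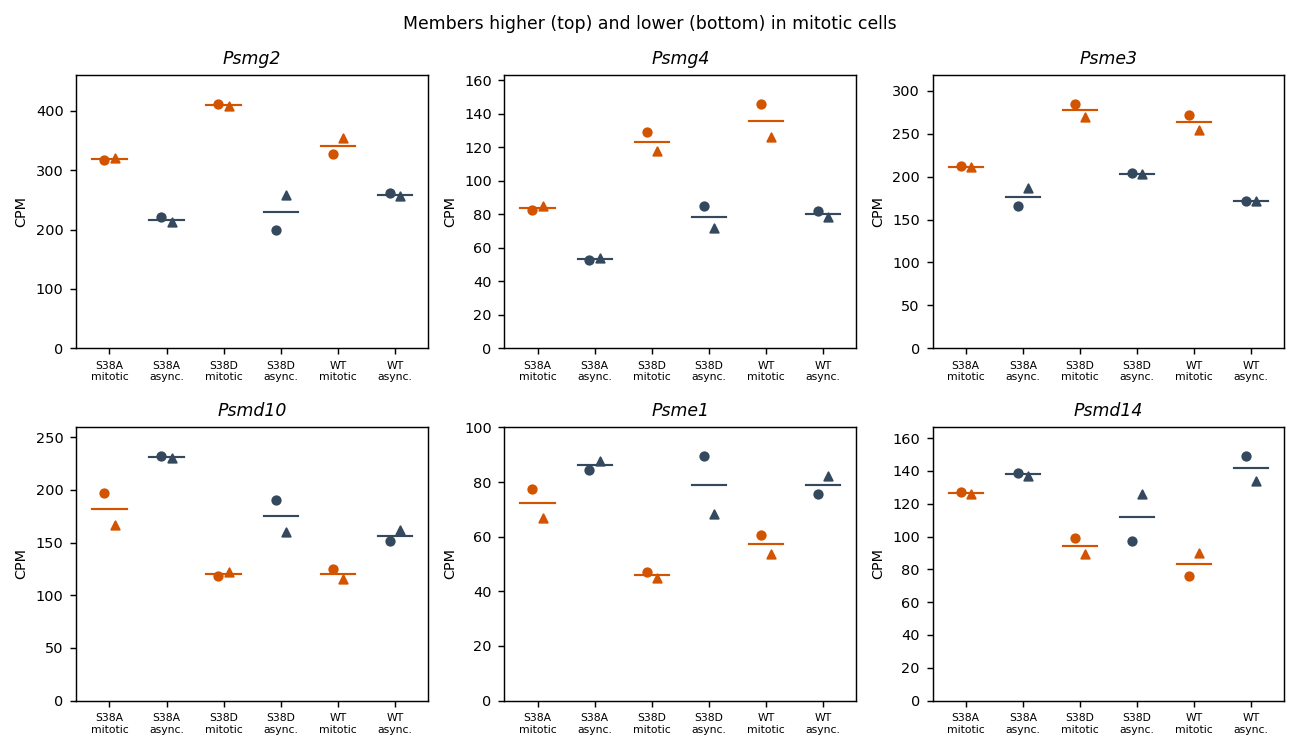
CPM (y axis) of 3 members that were higher in mitotic cells (top row) and 3 that were lower (bottom row), in each of the 6 groups along the x axis (orange, mitotic; dark blue, asynchronous; circle, replicate 1; triangle, replicate 2; line, mean of 2). Psmg4 is higher in the mitotic libraries of each line, while its S38A mitotic libraries, at 82.8 and 84.9 CPM, overlap the asynchronous ones of S38D.

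In the lid, Psmd14 (Rpn11), the deubiquitinase that frees substrates of their chains, had 127 and 126 CPM in S38A mitotic, 99.1 and 89.3 in S38D mitotic and 76.1 and 90.0 in WT mitotic libraries, against 139 and 137 in S38A asynchronous, 97.3 and 126 in S38D asynchronous and 149 and 134 in WT asynchronous libraries. The states overlapped in S38D and were apart in the other lines. The mean log2 fold change was -0.38 (SE 0.0785, adjusted p = 0.000991), with -0.77 (adjusted p = 0.000891) in WT. Psmd13 (Rpn9), a structural lid subunit, averaged 1197 ± 98.6 CPM in mitotic and 1475 ± 267 in asynchronous libraries (SD, n = 6 each), and the mean log2 fold change was -0.29 (SE 0.0747, adjusted p = 0.00517). Its states overlapped in WT. Psmd7 (Rpn8), the inactive partner of Psmd14, averaged 726 ± 113 CPM in mitotic and 600.0 ± 39.3 in asynchronous libraries (SD, n = 6 each), and the mean log2 fold change was 0.27 (SE 0.0682, adjusted p = 0.00510).

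In the core particle, the alpha subunit Psma7 averaged 1083 ± 62.5 CPM in mitotic and 911 ± 39.5 in asynchronous libraries (SD, n = 6 each), with a mean log2 fold change of 0.25 (SE 0.0592, adjusted p = 0.00290). Psmb1, a beta subunit without a catalytic site, averaged 705 ± 79.8 CPM in mitotic and 784 ± 69.0 in asynchronous libraries (SD, n = 6 each), with a mean log2 fold change of -0.16 (SE 0.0564, adjusted p = 0.0359). The Psmb1 call was lost without any one of 7 libraries, at adjusted p = 0.0640 to 0.111: S38A mitotic replicate 1, S38A mitotic replicate 2, S38A asynchronous replicate 1, S38A asynchronous replicate 2, S38D mitotic replicate 2, WT mitotic replicate 2 and WT asynchronous replicate 1. Psmc3ip, which is no proteasome gene, averaged 15.9 ± 1.62 CPM in mitotic and 24.1 ± 1.75 in asynchronous libraries (SD, n = 6 each), with a mean log2 fold change of -0.60 (SE 0.0998, adjusted p = 0.000154). The 3′ end of Psmc3ip overlaps Mlx on the opposite strand, which held 1372 reads against its 1287.

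Of the immunoproteasome subunits, Psmb10 rose in mitotic cells, Psmb9 was not called, and Psmb8 was called lower in a call that was lost without any one of 9 libraries. Psmb10 (chr8:105935735-105938444), whose promoter held none of the motifs above, had 177 and 162 CPM in S38A mitotic, 176 and 198 in S38D mitotic and 145 and 142 in WT mitotic libraries, against 125 and 139.9 in S38A asynchronous, 123 and 100.0 in S38D asynchronous and 83.1 and 88.7 in WT asynchronous libraries. No asynchronous library reached a mitotic one. The mean log2 fold change was 0.62 (SE 0.0721, adjusted p = 4.99e-06), with 0.36 (adjusted p = 0.0618) in S38A, 0.74 (adjusted p = 0.000394) in S38D and 0.74 (adjusted p = 0.000661) in WT. Under spike-in scaling the WT value was 0.30 (adjusted p = 0.128), and without both libraries that stood apart the S38A value was 0.34 (adjusted p = 0.00740).

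Psmb9 (chr17:34181987-34187764) had 48.8 and 59.7 CPM in S38A mitotic, 40.4 and 44.0 in S38D mitotic and 18.7 and 38.6 in WT mitotic libraries, against 64.6 and 58.5 in S38A asynchronous, 34.5 and 76.2 in S38D asynchronous and 83.1 and 79.1 in WT asynchronous libraries. The lowest value of each state was in a library that stood apart. Its mean log2 fold change of -0.69 (SE 0.243) missed the threshold at adjusted p = 0.0575. It was -0.70 without both of those libraries and -0.86 without S38D asynchronous replicate 1 alone. With each library left out in turn it ran between -0.90, without WT mitotic replicate 2, and -0.47. The adjusted p of the Psmb9 mean was 0.00104 in DESeq2 and 0.0418 with spike-in scaling. In WT Psmb9 was called lower, at -1.51 (SE 0.433, adjusted p = 0.0432), but that call was lost without any one of 9 libraries, with values of -1.52 to -1.04 and adjusted p = 0.0704 to 0.159. It kept the call without WT mitotic replicate 2 and without either S38D asynchronous library.

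Psmb8 (chr17:34197721-34201454) averaged 275 ± 53.1 CPM in mitotic and 315 ± 79.5 in asynchronous libraries (SD, n = 6 each). Its mean log2 fold change of -0.18 (SE 0.0683, adjusted p = 0.0440) was lost in DESeq2 (adjusted p = 0.0813) and without any one of 9 libraries (-0.20 to -0.12, adjusted p = 0.0519 to 0.192), which were all 6 mitotic ones, WT asynchronous replicates 1 and 2 and S38A asynchronous replicate 2. Within lines Psmb8 was -0.19 (adjusted p = 0.322) in S38A, -0.36 (adjusted p = 0.0336) in S38D and 0.01 (adjusted p = 0.977) in WT. The S38D call of Psmb8 was lost without any one of 6 libraries (-0.38 to -0.26, adjusted p = 0.0521 to 0.129): S38A mitotic replicate 1, S38A mitotic replicate 2, S38D mitotic replicate 1, S38D mitotic replicate 2, S38D asynchronous replicate 1 and WT asynchronous replicate 2. In DESeq2 its adjusted p was 0.0634, and the WT value of Psmb8 was -0.44 (adjusted p = 0.0379) with spike-in scaling.

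Of the constitutive catalytic subunits, Psmb5 had 69.2 and 60.3 CPM in S38A mitotic, 50.1 and 49.1 in S38D mitotic and 55.5 and 49.1 in WT mitotic libraries, against 64.3 and 63.3 in S38A asynchronous, 64.5 and 66.3 in S38D asynchronous and 59.6 and 68.9 in WT asynchronous libraries. Mitotic libraries were lower in S38D and WT and overlapped the asynchronous ones in S38A. The mean log2 fold change was -0.22 (SE 0.0766, adjusted p = 0.0274), and it was lost in DESeq2 (adjusted p = 0.107) and without any one of 6 libraries (adjusted p = 0.0575 to 0.0948): S38A mitotic replicate 2, S38A asynchronous replicate 1, S38A asynchronous replicate 2, S38D mitotic replicate 2, WT mitotic replicate 2 and WT asynchronous replicate 2. Psmb6 was not called, at -0.06 with a 95% interval of -0.22 to 0.09, except without S38D asynchronous replicate 2 (-0.14, adjusted p = 0.0218) or with spike-in scaling (-0.24, adjusted p = 0.0305). For Psmb7 the estimate was -0.00 and the interval ran over -0.62 to 0.62. The lines' own values were 0.28 (adjusted p = 0.797) in S38A, 0.59 (adjusted p = 0.492) in S38D and -0.88 (adjusted p = 0.30) in WT. Without both libraries that stood apart they were 0.26, 0.04 and -0.33 in the same order, with a mean of -0.01. Reads on Nek6, which overlaps the 3′ end of Psmb7 on the opposite strand, were 1239 against 14217.

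**Figure D4:**
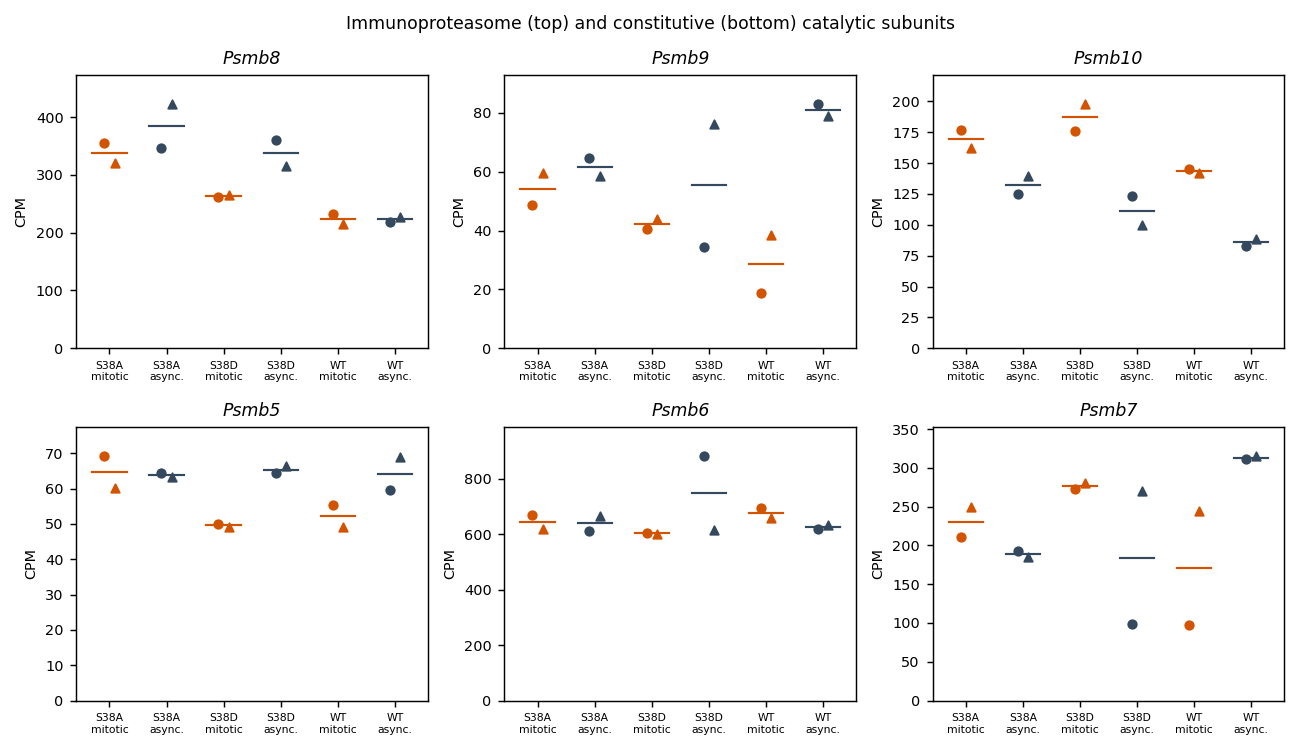
CPM (y axis) of the immunoproteasome subunits Psmb8, Psmb9 and Psmb10 (top row) and of the constitutive subunits Psmb5, Psmb6 and Psmb7 (bottom row) in the 6 groups along the x axis (orange, mitotic; dark blue, asynchronous; circle, replicate 1; triangle, replicate 2; line, mean of 2). Psmb10 is higher in the mitotic libraries of every line, Psmb8 is higher in S38A than in WT in both states, and Psmb7 and Psmb9 are low in the 2 libraries that stood apart.

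As a share of all reads on the 6 catalytic genes, the immunoproteasome genes took 37.9% and 37.0% in S38A mitotic, 34.0% and 35.3% in S38D mitotic and 31.9% and 29.4% in WT mitotic libraries. They took 38.1% and 40.4% in S38A asynchronous, 33.2% and 34.1% in S38D asynchronous and 28.0% and 28.0% in WT asynchronous libraries. Both mutant lines were above WT in each state, S38A by more than S38D. Taken pair by pair, Psmb9 as a share of Psmb9 and Psmb6 went the other way in asynchronous cells, at 9.54% and 8.05% in S38A and 3.77% and 11% in S38D libraries, against 11.8% and 11.1% in WT libraries. In mitotic cells the share of Psmb10 in Psmb10 and Psmb7 overlapped, at 45.6% and 39.5% in S38A, 39.2% and 41.4% in S38D and 59.9% and 36.8% in WT libraries. Psmb8 in both states, Psmb9 in mitotic and Psmb10 in asynchronous cells had shares above WT in both mutant lines. The exact 95% binomial interval of S38A asynchronous replicate 1 was 37.1% to 39.1% and that of WT asynchronous replicate 1 27.0% to 29.1%, and such intervals cover counting error only. No test over samples was run on these shares.

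Within single lines, 3 members were higher and 0 lower in S38A mitotic cells (14.8% of all genes called, 6.72% higher and 8.06% lower), each time against asynchronous cells of that line. In S38D mitotic cells 6 were higher and 7 lower (26.4% of all genes called, 11.6% higher and 14.8% lower), and in WT mitotic cells 4 were higher and 6 lower (26.0% of all genes called, 13.4% higher and 12.7% lower). These comparisons share no library. Psmg2 and Psmg4 were the 2 members called higher in all 3 lines, and 0 were called lower in all 3. Sharing of calls between lines was not counted over all genes, so these counts have no background beside them. The 4 members that rose in WT, Psmg2, Psmg4, Psmb10 and Psme3, were among the 6 that rose in S38D (66.7%), and 3 members fell in both of these lines, Psmd10, Psme1 and Psmc3ip (42.9% of the S38D and 50.0% of the WT list). Psme1 had -0.78 (SE 0.147, adjusted p = 0.000985) in S38D and -0.46 (SE 0.147, adjusted p = 0.0303) in WT, where the call was lost in DESeq2 (adjusted p = 0.0792) and without any one of 8 libraries. The WT call of Psmd10 was lost without any one of 7 libraries, where leaving out each library in turn gave -0.43 to -0.31. That of Psmc3ip was lost without any one of the 4 WT libraries, with -0.65 to -0.46 in the same way. The third member higher in S38A was Psmc6, described below.

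With spike-in scaling 2 members were higher and 0 lower in S38A (all genes, 4.00% higher and 4.90% lower), and 3 and 6 in S38D (all genes, 5.76% higher and 15.4% lower). In WT, where the median of all genes moved by -0.43, 0 were higher and 29 lower (all genes, 2.07% higher and 30.8% lower). DESeq2's size factors gave 3 and 1 in S38A. The S38A count was 1 without S38A asynchronous replicate 1, asynchronous replicate 2 or mitotic replicate 2 (5.79% to 6.66% of all genes called), and 8 without either S38D asynchronous library (22.7%). The S38D count was 26 without S38D asynchronous replicate 2 (34.8% of all genes called), 7 without mitotic replicate 1 (15.7%) and 8 without mitotic replicate 2 (13.6%). The WT count was 4 without WT asynchronous replicate 1 (10.2% of all genes called), 6 without asynchronous replicate 2 (14.7%) or mitotic replicate 1 (12.0%), 21 without S38D asynchronous replicate 1 (34.5%) and 18 without its replicate 2 (35.1%). Without both libraries that stood apart, 11 members were higher and 2 lower in S38A (27.1% of all genes called).

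Between lines, S38A was higher than WT in 8 members and lower in 2 in mitotic cells (17.0% of all genes called, 8.31% higher and 8.72% lower). In asynchronous cells 7 were higher and 2 lower in S38A (21.2% of all genes called, 11.7% higher and 9.54% lower). The 3 immunoproteasome genes had 1 higher and 0 lower (median 0.59) in mitotic and 2 higher and 0 lower (median 0.62) in asynchronous cells. The 14 constitutive core subunits had 2 higher and 0 lower (median 0.09) and 1 higher and 0 lower (median -0.02) in the same order of states, and the 17 cap subunits 4 higher and 0 lower (median 0.18) and 3 higher and 0 lower (median -0.02). The medians of all genes were 0.03 and -0.02. Of the rises, 4 were shared by both states (50.0% of the mitotic and 57.1% of the asynchronous list), Psmb8, Psma6, Psmc1 and Psmd10, and of the falls 1, Psmg4 (50.0% of each list). The states share no library but come from the same lines. Non-overlap of 2 libraries against 2 was common among members, also without a call. Both S38A libraries lay above both WT ones in 22 of 48 members in mitotic and 17 in asynchronous cells, and below in 6 and 17. Sharing and non-overlap are not set against all genes here.

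Psmb8 had 355 and 321 CPM in S38A mitotic and 233 and 215 CPM in WT mitotic libraries. In asynchronous cells it had 346 and 423 CPM in S38A asynchronous and 219 and 228 CPM in WT asynchronous libraries. S38A was above WT in both states, by log2 0.59 (SE 0.119, adjusted p = 0.00266) in mitotic and 0.78 (SE 0.119, adjusted p = 0.000269) in asynchronous cells. Psmb10 had 125 and 139.9 CPM in S38A asynchronous and 83.1 and 88.7 CPM in WT asynchronous libraries, a difference of 0.62 (SE 0.127, adjusted p = 0.00252). In mitotic cells its difference was 0.24 (95% interval -0.00 to 0.48, adjusted p = 0.212). Psmb9, next to Psmb8 on chromosome 17, was not called in either state, at 0.93 (SE 0.432, adjusted p = 0.208) in mitotic and -0.40 (SE 0.410, adjusted p = 0.537) in asynchronous cells. Without both libraries that stood apart its values were 0.47 and -0.37.

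The constitutive Psmb5 was at 0.31 in mitotic (95% interval 0.05 to 0.57) and -0.01 in asynchronous cells (-0.27 to 0.25), S38A minus WT, and Psmb6 at -0.07 (-0.33 to 0.19) and 0.03 (-0.23 to 0.30), with no call. Psmb7 had 193 and 185 CPM in S38A asynchronous and 311 and 315 CPM in WT asynchronous libraries. Its asynchronous difference was -0.73, with adjusted p = 0.397 in the fit of all libraries, and -0.69 without both libraries that stood apart.

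Psmg4 was lower in S38A than in WT in both states, at -0.70 (SE 0.124, adjusted p = 0.00113) in mitotic and -0.59 (SE 0.128, adjusted p = 0.00403) in asynchronous cells. The asynchronous call of Psmg4 was lost without S38A asynchronous replicate 1 (adjusted p = 0.0573) or WT asynchronous replicate 1 (0.0529). Psmd5 (chr2:34849734-34874968), a chaperone of the base, had 65.2 and 66.9 CPM in S38A asynchronous and 110.3 and 112 CPM in WT asynchronous libraries, which did not overlap (log2 -0.75, SE 0.140, adjusted p = 0.00142). In mitotic cells Psmd5 had 77.2 and 83.0 CPM in S38A mitotic and 83.1 and 93.9 CPM in WT mitotic libraries (log2 -0.14, SE 0.140, adjusted p = 0.535). Psmd14, the deubiquitinase, had 127 and 126 CPM in S38A mitotic and 76.1 and 90.0 CPM in WT mitotic libraries (log2 0.61, SE 0.137, adjusted p = 0.00591). That call was lost without S38A mitotic replicate 1 (adjusted p = 0.0514), and without WT mitotic replicate 1 the value was 0.47 and was not called.

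Psma6, an alpha subunit, and Psmc1 (Rpt2), a base ATPase, lie on chromosome 12. Psma6 had 189 and 175 CPM in S38A mitotic and 108 and 105 CPM in WT mitotic libraries, and 167 and 179.7 CPM in S38A asynchronous and 118 and 122 CPM in WT asynchronous libraries. The lines did not overlap in either state, with log2 differences of 0.77 (SE 0.124, adjusted p = 0.000514) in mitotic and 0.53 (SE 0.124, adjusted p = 0.00643) in asynchronous cells. Psmc1 had 489.9 and 459 CPM in S38A mitotic and 344 and 245 CPM in WT mitotic libraries (log2 0.69, SE 0.182, adjusted p = 0.0235). In asynchronous cells it had 465 and 429 CPM in S38A asynchronous and 246 and 265 CPM in WT asynchronous libraries (log2 0.81, SE 0.183, adjusted p = 0.00904). Of the 383 chromosome 12 genes tested, 152 (39.7%, median log2 0.63) were higher in S38A than in WT in mitotic cells and 144 (37.6%, median 0.46) in asynchronous cells. Psma3, the other member there, had -0.11 in mitotic and -0.07 in asynchronous cells. On the X chromosome, which holds Psmd10, 53 of 308 genes (17.2%, median 0.23) were higher in S38A mitotic and 42 (13.6%, median 0.04) in S38A asynchronous cells. Psmd10 was higher in S38A by 0.60 (SE 0.121, adjusted p = 0.00280) in mitotic and 0.57 (SE 0.120, adjusted p = 0.00346) in asynchronous cells. The part of these chromosome-wide differences in the members' values was not tested.

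**Figure D5:**
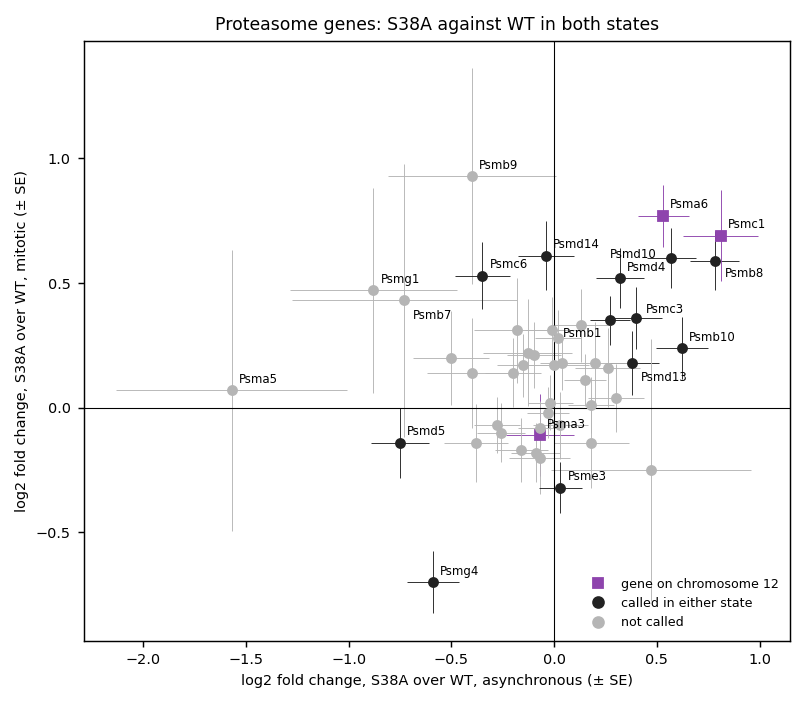
Log2 fold change of S38A over WT for the 48 members tested, in asynchronous cells (x axis) and mitotic cells (y axis), with bars of ± SE; purple squares are members on chromosome 12. Psmb8 (0.59 mitotic, 0.78 asynchronous), Psma6, Psmc1 and Psmd10 are high on both axes and Psmg4 (-0.70 and -0.59) is low on both.

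The S38A differences depended on the scaling. With spike-in scaling the median of all genes moved by -0.45 in asynchronous cells, and 0 members were higher and 21 lower in S38A (all genes, 1.93% higher and 29.7% lower). There Psmb8 was 0.33 (adjusted p = 0.104), Psmb10 0.17 (adjusted p = 0.381), Psmc1 0.34 (adjusted p = 0.135), Psma6 0.07 (adjusted p = 0.706) and Psmd10 0.11 (adjusted p = 0.579). In mitotic cells the median moved by 0.00, and spike-in scaling gave 6 higher and 1 lower (all genes, 5.02% higher and 5.79% lower). The asynchronous count was 3 without WT asynchronous replicate 1 (8.09% of all genes called) and 17 without either S38D asynchronous library (31.0% to 31.3%). Without both libraries that stood apart it was 12 higher and 12 lower (36.2% of all genes called). The mitotic count was 3 without S38A mitotic replicate 1 (8.38% of all genes called), and 6 without S38A mitotic replicate 2, WT mitotic replicate 1 or WT mitotic replicate 2 (7.37% to 11.2%). Without WT asynchronous replicate 1 the asynchronous calls of Psma6 (adjusted p = 0.0763), Psmc1 (0.0901) and Psmd10 (0.0613) were lost, and that of Psma6 also without S38A asynchronous replicate 2 (0.0584). In mitotic cells the call of Psmd10 was lost without S38A mitotic replicate 1 (adjusted p = 0.0635), and that of Psmc1 without S38A mitotic replicate 1 (0.118), S38A mitotic replicate 2 (0.0810) or WT mitotic replicate 2 (0.124).

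S38D gave fewer calls against WT. In mitotic cells edgeR called 0 members (4.56% of all genes called, 1.15% higher and 3.41% lower), and DESeq2 called 0. At an unadjusted p under 0.05 there were 5 members, a count not made over all genes. Psmb8 had 262 and 265 CPM in S38D mitotic and 233 and 215 CPM in WT mitotic libraries, a log2 difference of 0.23 with a 95% interval of 0.00 to 0.47. For Psmb10 the mitotic difference was 0.38 (0.14 to 0.62, adjusted p = 0.101), which became a call without both libraries that stood apart (adjusted p = 0.0497), without S38D asynchronous replicate 1 (0.0118) or without its replicate 2 (0.0134), with 0.495 as its highest adjusted p over the alternatives. For Psmb9 it was 0.57 (-0.29 to 1.42), with 0.11 without both libraries that stood apart, 0.11 without WT mitotic replicate 1 and 1.2 without WT mitotic replicate 2. For Psmd5 it was -0.12 (-0.39 to 0.15). The count was 5 without either S38D asynchronous library (9.93% of all genes called without replicate 1 and 10.1% without replicate 2) and 3 without both libraries that stood apart (6.18% of all genes called).

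In asynchronous cells 2 members were higher and 1 lower in S38D than in WT (8.99% of all genes called, 4.87% higher and 4.12% lower), set against the same WT libraries as S38A. Psmb8 had 361 and 315 CPM in S38D asynchronous and 219 and 228 CPM in WT asynchronous libraries, which did not overlap (log2 0.60, SE 0.119, adjusted p = 0.00492). Its call was lost without WT asynchronous replicate 1 (adjusted p = 0.0894) and with spike-in scaling, at 0.21 (adjusted p = 0.337). Psmb10 had 123 and 100.0 CPM in S38D asynchronous and 83.1 and 88.7 CPM in WT asynchronous libraries and was not called (log2 0.38, SE 0.127, adjusted p = 0.0733). Psmd5 had 54.0 and 70.2 CPM in S38D asynchronous and 110.3 and 112 CPM in WT asynchronous libraries (log2 -0.84, SE 0.141, adjusted p = 0.00148), a call kept in all alternatives run. Psmd13 had 1903 and 1398 CPM in S38D asynchronous and 1172 and 1240.2 CPM in WT asynchronous libraries (log2 0.45, SE 0.130, adjusted p = 0.0393), and 0.23 (adjusted p = 0.200) without S38D asynchronous replicate 1. The Psmd13 call was lost without any one of 6 libraries (adjusted p = 0.0511 to 0.269): S38A asynchronous replicate 1, S38A asynchronous replicate 2, S38D mitotic replicate 2, S38D asynchronous replicate 1, WT asynchronous replicate 1 and WT asynchronous replicate 2. With spike-in scaling the split was 0 higher and 6 lower (all genes, 0.554% higher and 12.5% lower), and the median of all genes moved by -0.38. Without S38D asynchronous replicate 2, 26 members and 29.8% of all genes were called, and 1 member and 2.18% without WT asynchronous replicate 1.

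A test of the difference in mitotic change between S38A and WT called 1 member, Psmc6 (Rpt4), a base ATPase (0.993% of all genes called, 0.496% higher and 0.496% lower). Psmc6 (chr14:45329788-45349705) had 126 and 110.1 CPM in S38A mitotic and 79.6 and 86.4 CPM in S38A asynchronous libraries, and 79.0 and 84.7 CPM in WT mitotic and 119 and 91.8 CPM in WT asynchronous libraries. Mitotic libraries were the higher ones in S38A and the lower ones in WT. The change was 0.51 (SE 0.134, adjusted p = 0.0167) in S38A and -0.37 (SE 0.136, adjusted p = 0.0569) in WT, and the difference was 0.88 (SE 0.191, adjusted p = 0.0380). The S38A change was not called without any one of the 4 S38A libraries (adjusted p = 0.0539 to 0.197). The call of the difference in Psmc6 was lost without any one of 10 libraries, all except the S38D asynchronous ones, with values of 0.68 to 1.00 and adjusted p = 0.0571 to 0.283. The same test called 5 members without S38D asynchronous replicate 1 (11.2% of all genes), 7 without its replicate 2 (11.9%), and 5 without both libraries that stood apart (7.39%). The last were Psma5 (1.19), Psmg1 (0.95), Psmb9 (0.84), Psmc6 (0.78) and Psmb7 (0.59). Leaving out WT mitotic replicate 1 dropped the replicate spread of Psma5, Psmg1, Psmb9 and Psmb7 in that group, so their calls add no support. In the fit of all libraries Psma5 was 1.64 (adjusted p = 0.323), Psmg1 1.35 (adjusted p = 0.266), Psmb9 1.33 (adjusted p = 0.288) and Psmb7 1.16 (adjusted p = 0.465). Between S38D and WT edgeR called 0 members (0.401% of all genes called, 0.143% higher and 0.258% lower), and DESeq2 called 0. At an unadjusted p under 0.05 there were 11 members in edgeR, a count not made over all genes. There Psmb7 was 1.47 with all libraries and 0.37 without both that stood apart, and Psmb9 1.1 and 0.19, with no call in either fit.

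Genes that act with the proteasome were taken from lists outside the symbol rule. Of 11 associated factors 3 were higher and 1 lower in mitotic cells, where 20.5% of all genes were higher and 21.6% lower. The one that fell was Ecpas, a scaffold of the assembled proteasome, at -0.59 (SE 0.0886, adjusted p = 6.15e-05). Of 8 genes of the p97 segregase, which extracts ubiquitinated proteins, 2 rose and 2 fell, beside the same shares of all genes. Vcp, its ATPase, had 350.4 and 381 CPM in S38A mitotic, 143 and 140.2 in S38D mitotic and 189 and 158 in WT mitotic libraries, against 500.2 and 544 in S38A asynchronous, 437 and 308 in S38D asynchronous and 302 and 348 in WT asynchronous libraries. Vcp was lower in the mitotic libraries of each line, with a mean log2 fold change of -0.94 (SE 0.0852, adjusted p = 4.40e-07), and higher in S38A than in WT mitotic cells, by 1.07 (SE 0.148, adjusted p = 0.000152). Of 12 ubiquitin, E1 and shuttle genes, 3 rose and 5 fell in mitotic cells, among them the ubiquitin gene Ubb at -0.68 (SE 0.0864, adjusted p = 1.15e-05).

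Of 10 tested genes that act in the transcription of proteasome genes, 5 were higher and 0 lower in mitotic cells (20.5% and 21.6% of all genes), among them Ddi2, the protease that activates the transcription factor Nfe2l1, at 0.51 (SE 0.0782, adjusted p = 7.62e-05). Nfe2l1, which drives proteasome genes through antioxidant response elements when proteasome activity falls, had 231 and 216 CPM in S38A asynchronous, 145 and 267 in S38D asynchronous and 504 and 549 in WT asynchronous libraries. Both mutant lines were below WT, by -1.24 (SE 0.279, adjusted p = 0.0183) in S38A and by -1.36 (SE 0.280, adjusted p = 0.0262) in S38D, against the same WT libraries. The S38A call of Nfe2l1 was lost without any one of the 4 libraries compared (adjusted p = 0.0751 to 0.113), and the S38D call without S38D mitotic replicate 1 (0.0547) or 2 (0.0503) or WT asynchronous replicate 1 (0.124) or 2 (0.118). In the same asynchronous comparisons the members' median log2 fold changes were -0.02 for S38A and 0.02 for S38D.

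Of the 48 members tested, 26 were called in none of the 10 comparisons (54.2%, against 40.4% of all genes tested). They included 5 of the 7 alpha subunits (Psma1 to Psma5), the beta subunits Psmb2, Psmb3, Psmb4, Psmb6 and Psmb7, the ATPases Psmc2, Psmc4 and Psmc5, and the base scaffolds Psmd1 and Psmd2. Psmb4, the member with the highest level in CPM, had 3012 and 2670.5 CPM in S38A mitotic, 2542 and 2775 in S38D mitotic and 2909 and 2723 in WT mitotic libraries, against 3042 and 3142 in S38A asynchronous, 3376 and 2790.1 in S38D asynchronous and 2657 and 2808 in WT asynchronous libraries. Mitotic libraries lay below the asynchronous ones in S38A and S38D and overlapped them in WT, and the mean mitotic difference was -0.10 (SE 0.0647, adjusted p = 0.245).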

How the data were processed

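The deposited files hold counts, whole numbers of reads per gene and spike-in without normalization, 1 file per library. Per the labels' protocols, 1 µg of total RNA from cleared lysates with ERCC spike-ins entered QuantSeq 3′ forward libraries read to 51 nt. Per the submitters' processing notes, bcl2fastq 2.16.0.10, cutadapt 1.12, STAR 2.5.3a and mm10 were used. No aligner setting, counting program, use of strand or treatment of reads with several matches is given in the sources used here. From these counts, genes were filtered with filterByExpr (minimum count 10) and fitted over all 12 libraries with edgeR 4.0.16 in R 4.3.3: TMM factors, a mean per group, robust quasi-likelihood F tests and Benjamini-Hochberg adjustment over 10477 genes in each of 10 comparisons. The common biological coefficient of variation was 0.143, with 6 residual and a median of 9.95 prior degrees of freedom. SEs come from the F statistics, and 95% intervals are the estimate ± 1.96 SE. Scripts were tested on simulated counts. Alternatives were DESeq2 1.42.0, its size factors, spike-in scaling, no filter, a filter at 10 CPM, a replicate block and libraries left out. Near-identical 3′ ends (at least 51 nt at 98% identity) were searched among transcripts. Members, classes and lists were chosen with earlier results of these data known. Any member could be named. Full statistics went to the 8 largest called changes in each direction of the mean mitotic comparison. In the others they were meant for the 4 largest and for Psmb5 to Psmb10, but not all of these are printed. One left out is Psme3, called lower in S38A than in WT mitotic cells (-0.35 to -0.29 with each library left out in turn). That call was lost without any one of 10 libraries. Of a list, the 3 genes with the smallest adjusted p in a comparison could be named. Other members named were chosen after their values were seen.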

Additional observations from a re-analysis of the deposited data

Results flagged for a closer look

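The mitotic change of Psmc6, a base ATPase, differed between S38A and WT by a test of the difference itself, which is why it is listed here: the log2 difference was 0.88 (SE 0.191, adjusted p = 0.0380) in edgeR. Both S38A mitotic libraries were above both S38A asynchronous ones, and both WT mitotic libraries were below both WT asynchronous ones. It was the 1 call among 48 members, at 0.993% of all genes called, and it was lost without any one of 10 libraries (0.68 to 1.00, adjusted p = 0.0571 to 0.283).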

How the results depend on the processing

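Of 63 called values of members, 55 kept direction and call in DESeq2, 63 with its size factors, 41 with spike-in scaling, 60 without a filter, 61 with a 10 CPM filter, 63 with a replicate block and 58 without both libraries that stood apart; of 756 values with 1 library left out, 622 did and 134 lost the call. None of these called values reversed except 3 with spike-in scaling, Psmg2 in WT mitotic cells (-0.05) and Psmc3 (-0.06) and Psmd13 (-0.08) in S38A asynchronous cells. There 2 values that were not called also changed sign and became calls, Psmb8 in WT mitotic cells (-0.44, adjusted p = 0.0379) and Psmb6 in S38A asynchronous cells (-0.42, adjusted p = 0.0341), and Ddi2, no member, called in WT mitotic cells, was -0.00. Counts of members called moved by over 1.5 times with spike-in scaling to 25 (mean mitotic), 29 (WT mitotic), 21 (S38A against WT, asynchronous), 6 (S38D against WT, asynchronous) and 3 (mitotic change, S38A minus WT). Without a filter they were 7 (S38D against WT, asynchronous, 8.04% of all genes called), 2 (mitotic change, S38A minus WT, 3.12%) and 4 (mitotic change, S38D minus WT, 3.68%), and with the 10 CPM filter 5 (S38A mitotic, 20.6%). Without both libraries that stood apart they were 13 (S38A mitotic), 24 (S38A against WT, asynchronous), 3 (S38D against WT, mitotic) and 5 (mitotic change, S38A minus WT). With 1 library left out the counts ranged over 12 to 24 (mean mitotic), 1 to 8 (S38A mitotic), 7 to 26 (S38D mitotic), 4 to 21 (WT mitotic), 3 to 17 (S38A against WT, asynchronous), 3 to 13 (the same, mitotic), 1 to 26 (S38D against WT, asynchronous), 0 to 5 (the same, mitotic), 0 to 7 (mitotic change, S38A minus WT) and 0 to 22 (S38D minus WT). A group left with 1 library is assumed to vary like the others. The cause of these shifts was not tested.

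The replicate numbers do not pair the samples: over 15 pairs of groups, correlations of replicate deviations ran between -0.253 and 0.627. A fit with the replicate block called 16 members in the mean mitotic comparison (43.2% of all genes called). It called 3, 14 and 11 in the S38A, S38D and WT mitotic ones (15.7%, 27.1% and 27.2%). Against WT, S38A and S38D had 9 and 3 in asynchronous cells (22.6% and 10.5%), and 11 and 0 in mitotic cells (17.7% and 4.99%). Psmb9 in the mean mitotic comparison was -0.70 in that fit (adjusted p = 0.0312). Depth limits mainly Psme2b, with 118 reads in all.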

Other observations

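Of 18 APC/C genes, which mark mitotic proteins for the proteasome, 3 were higher and 5 lower in mitotic cells over the 3 lines, where 20.5% of all genes were higher and 21.6% lower. Fzr1, the activator that takes over in late mitosis and G1, had 105 and 109.7 CPM in S38A mitotic, 69.6 and 84.1 in S38D mitotic and 90.7 and 81.8 in WT mitotic libraries, against 206 and 209 in S38A asynchronous, 213 and 159 in S38D asynchronous and 139 and 147 in WT asynchronous libraries. Every mitotic library was below every asynchronous one, and the mean log2 fold change was -0.98 (SE 0.0810, adjusted p = 1.22e-07) in edgeR.

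Of 13 tested genes of MHC class I processing and interferon, 1 was higher and 3 lower in mitotic cells (20.5% and 21.6% of all genes). In S38A asynchronous cells 2 were higher and 2 lower than in WT (11.7% and 9.54% of all genes). The median log2 difference of the list was 0.19. B2m, the light chain of MHC class I and 1 of the 2 lower genes, had 49.3 and 49.5 CPM in S38A asynchronous and 128 and 102 CPM in WT asynchronous libraries. Its log2 difference was -1.22 (SE 0.207, adjusted p = 0.00141 in edgeR). Psmb8 and Psmb10 were higher in the same S38A libraries, but were not called with spike-in scaling.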
